A study of Mus musculus with 7 samples.

Results

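The 42 genes described here encode DNA damage signalling and repair proteins, from the checkpoint kinases to the recombination, Fanconi and end-joining factors. They were taken by symbol from a list of pathway members that was drawn up with earlier results of these data known, although the list's rule uses no measured value, and all 42 were found among the 24421 gene symbols counted in the series. Transcripts were profiled in sorted Lin-Sca1+Kit+ (LSK) marrow cells, a gate that contains the stem cells and multipotent progenitors of the blood. The cells came from lethally irradiated BoyJ recipients of marrow carrying Rosa-CreERT2, a tamoxifen-activated Cre recombinase expressed from a broadly active locus, and all recipients were given tamoxifen at 1 mg per injection and were harvested 8 weeks after transplant. In Ddx41+/- samples (n = 3, replicates 6 to 8) 1 floxed allele of the DEAD-box helicase gene Ddx41 had been carried by the donor, and in Ddx41+/+ samples (n = 4, replicates 1 to 4) none. Donor age is not given, no gate on donor cells is described for this sort, and a Ddx41+/- library numbered 5 had been removed from the deposited counts for a reason that is not stated.

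A double-strand break is sensed by the Mre11-Rad50-Nbn complex, which recruits the kinase Atm, whereas stretches of single-stranded DNA at stalled forks recruit Atr through its partner Atrip. The kinases act through Chek2 and Chek1 to halt the cell cycle and to stabilize p53, and breaks are then repaired by end joining or, in S and G2, by homologous recombination. Hematopoietic stem cells depend on these pathways, and inherited loss of Fanconi genes in humans leads to marrow failure.

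Total counts per sample ranged from 32234499 to 43751290, and values are given as CPM, counts scaled to library size (after TMM normalization). Ddx41 was 97.9 ± 6.43 CPM in Ddx41+/+ LSK cells (SD, n = 4) and 67.3 ± 2.63 CPM in Ddx41+/- LSK cells (SD, n = 3). Its log2 fold change was -0.54 (SE 0.071, BH-adjusted p = 0.0052 with the quasi-likelihood test of edgeR), and the genotypes did not overlap. Of the 8 LSK genes listed as markers, all were detected, with a summed level of 1772 to 1968 CPM in Ddx41+/+ and 1694 to 1840 CPM in Ddx41+/- samples. In edgeR 3 of these 8 were lower in Ddx41+/- LSK cells at an unadjusted p under 0.05 (37.5%, against 4.93% of all genes). The LSK sum was mostly Cd34 (646.5 to 829.9 CPM) and Kit (427.0 to 505.0 CPM), with Ly6a at 13.3 to 30.5 CPM. A list of 10 mature neutrophil genes summed to 755 to 1271 CPM in Ddx41+/+ and 1359 to 2327 CPM in Ddx41+/- samples. All 10 were higher in Ddx41+/- LSK cells at an unadjusted p under 0.05, against 5.7% of all genes. Of these 10, 1 was higher at an adjusted p under 0.05, against 0.12% of all genes. The sums were 78.4 to 105 against 86.3 to 121 CPM for macrophage genes, 44 to 65.4 against 59.4 to 83.5 CPM for B-lineage genes and 24.7 to 48.7 against 35.3 to 58.0 CPM for late erythroid genes, with the 4 globin genes of the last list at 0 in all samples. All 8 B-lineage genes had a positive log2 fold change, 3 of them with an unadjusted p under 0.05 (37.5%, against 5.7% of all genes). All 7 macrophage genes were positive, 0 with an unadjusted p under 0.05 in edgeR. T and NK cell genes summed to 224 to 276 against 256 to 284 CPM, nearly all of it Nkg7 (220.7 to 281.0 CPM), while 5 of the 8 genes, Cd3d, Cd3e, Cd3g, Cd8a and Ncr1, were below 1 CPM in every sample. Stromal and endothelial genes summed to 151 to 178 against 169 to 181 CPM, mostly Pecam1 (132.5 to 155.9 CPM). The part of these cells in the differences below was not tested, and in sorted bulk samples fewer cells of a type and less RNA per cell cannot be told apart.

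Transcript levels of the 42 genes spanned more than 2 orders of magnitude. Per kilobase of exon, the highest mean level over the 7 samples was 180.0 CPM for H2afx, which encodes the histone variant phosphorylated around breaks. It was followed by Trp53 at 149 CPM per kb and by Parp1, which encodes the main nuclear poly(ADP-ribose) polymerase, at 122 CPM per kb. In Ddx41+/+ samples H2afx was 183 ± 9.33 and Trp53 153 ± 0.415 CPM per kb (SD, n = 4), so these neighbours in the order were further apart than their spread. At the lower end stood Rad51c at 1.17, Rnf8 at 0.917 and Lig4 at 0.760 CPM per kb. Rnf8 was 0.891 ± 0.189 and Lig4 0.797 ± 0.209 CPM per kb in Ddx41+/+ samples (SD, n = 4), and their ranks could not be separated by this spread. H2afx exceeded 97.6% and Lig4 16.3% of all genes tested on the scale per kilobase.

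**Figure D1:**
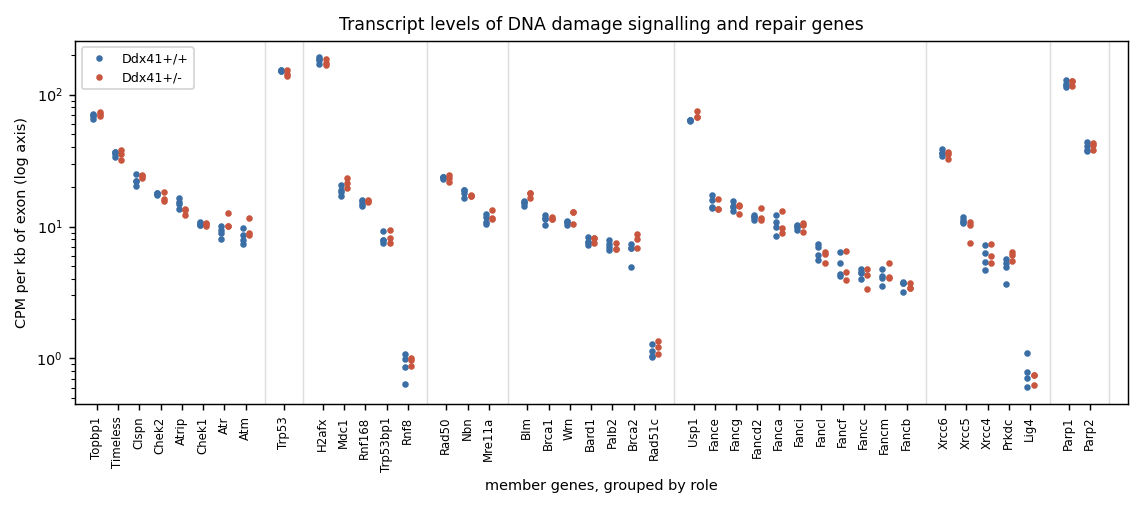
CPM per kilobase of exon (log axis) of the 42 genes, grouped by role, with 1 point for each of the 4 Ddx41+/+ (blue) and 3 Ddx41+/- (red) samples. H2afx, Trp53 and Parp1 lie at the top, Rad51c, Rnf8 and Lig4 near 1 CPM per kb at the bottom, and the points of both genotypes lie close together for most genes.

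All 42 genes passed the filter on low counts and were tested together with the rest of the 13340 genes. At a BH-adjusted p under 0.05 in edgeR, 0 of the 42 differed between genotypes, against 29 of 13340 genes in all (0.217%, with 0.12% higher and 0.0975% lower in Ddx41+/- LSK cells), and the adjusted p-values ran from 0.284 to 0.976. At an unadjusted p under 0.05, 8 of the 42 differed (19.0%), against 10.6% of all genes. Higher in Ddx41+/- LSK cells were the 7 genes Blm, Atr, Mdc1, Usp1, Brca2, Prkdc and Wrn (16.7%, against 5.7% of all genes), and lower was Atrip (against 4.93% of all genes). DESeq2 and limma-voom also gave 0 genes at an adjusted p under 0.05. The CPM of the genotypes did not overlap for 3 of the 42 genes (Blm and Usp1 higher, Atrip lower), which at 7.14% was below the 10.1% of all genes (4.85% higher and 5.21% lower). The median log2 fold change was 0.03, with 24 genes positive and 18 negative, and that of all genes tested was -0.0048.

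The precision of these estimates allows bounds to be placed on the differences. The 95% interval of the fold change lay inside 1.5-fold in either direction for 41 of the 42 genes, against 70.2% of all genes tested. The exception was Lig4, with an interval from 0.625 to 1.26 times the Ddx41+/+ level and a lowest count of 114. The median SE of the log2 fold change was 0.083 for the 42 genes and 0.11 for all genes.

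**Figure D2:**
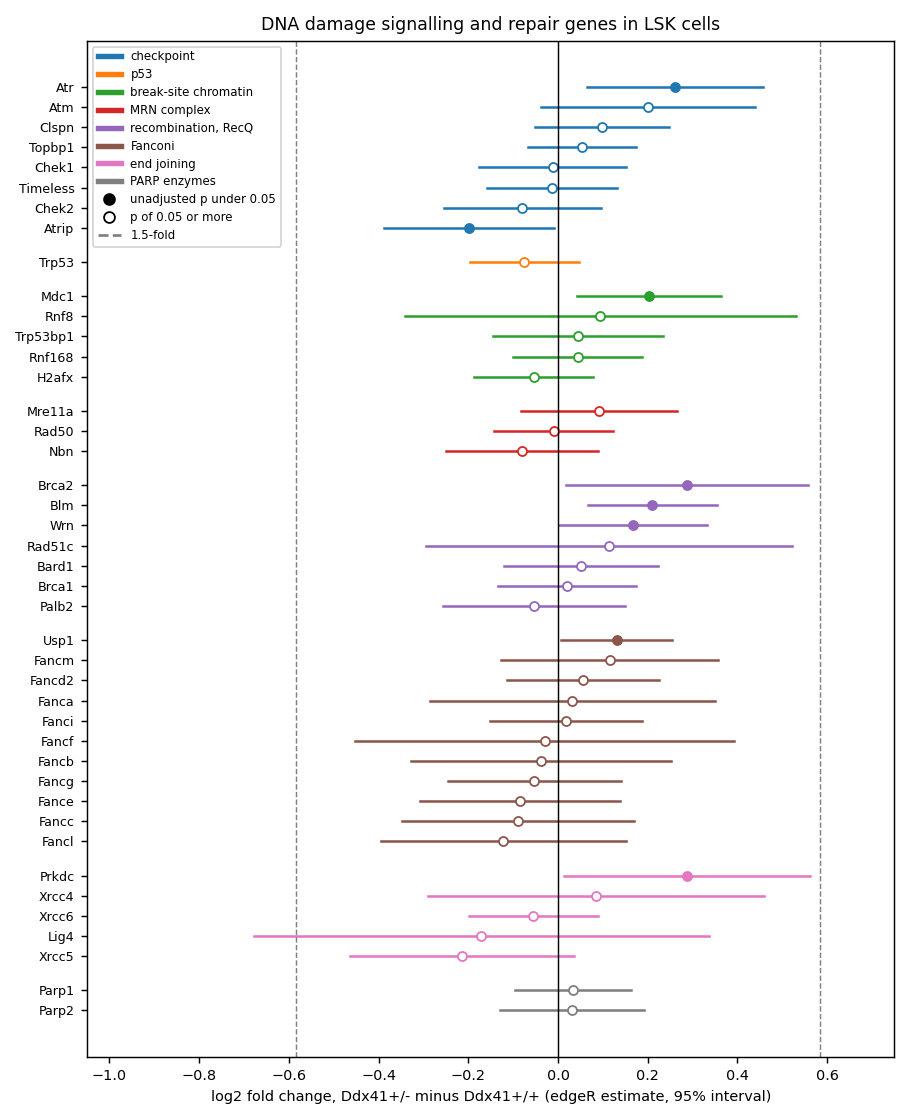
Log2 fold change (Ddx41+/- minus Ddx41+/+, edgeR) of each of the 42 genes with its 95% interval, grouped and coloured by role. Filled points mark an unadjusted p under 0.05, and only the interval of Lig4 crosses the dashed lines at 1.5-fold.

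Among the 8 checkpoint genes, 4 had a positive and 4 a negative log2 fold change. Atr and Atrip had an unadjusted p under 0.05 (25%, against 10.6% of all genes). Atr has 8.21 kb of exon, and of all genes with at least 7 kb 15.9% were higher at this threshold. Atr, the kinase of replication stress, was measured at 82.6, 66.6, 76.8 and 73.4 CPM in Ddx41+/+ and 82.2, 82.9 and 104.0 CPM in Ddx41+/- samples. All but 1 Ddx41+/+ sample lay below the Ddx41+/- samples, and replicate 1 fell between them. The log2 fold change was 0.26 (SE 0.092, unadjusted p = 0.0124, adjusted p = 0.322 in edgeR), or 0.14 without replicate 8. Atrip, which binds Atr and brings it to single-stranded DNA, was measured at 39.4, 37.9, 35.19 and 42.5 CPM in Ddx41+/+ and 35.16, 31.7 and 34.3 CPM in Ddx41+/- samples. The genotypes did not overlap, but replicates 3 and 6 were almost level. Its log2 fold change was -0.20 (SE 0.089, unadjusted p = 0.0406, adjusted p = 0.437 in edgeR).

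Atr and Atrip form 1 complex and had estimates of opposite sign, neither past the adjusted threshold, and the bases before their starts are shown for comparison. The windows come from RefSeq on GRCm38.p6, 250 bases upstream of the gene start and written along the gene's own strand, for Atr on the plus strand at chr9:95857347-95857596 and for Atrip on the minus strand at chr9:109074125-109074374. Capitals mark CCAAT or its reverse complement ATTGG, which was found in Atrip from 10 to 6 bases before the start, and none of the motifs searched was found in the Atr window.
Atr: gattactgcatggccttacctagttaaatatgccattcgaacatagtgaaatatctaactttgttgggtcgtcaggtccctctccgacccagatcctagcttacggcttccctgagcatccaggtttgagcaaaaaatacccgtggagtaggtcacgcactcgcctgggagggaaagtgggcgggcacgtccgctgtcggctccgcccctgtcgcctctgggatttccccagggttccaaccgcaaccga
Atrip: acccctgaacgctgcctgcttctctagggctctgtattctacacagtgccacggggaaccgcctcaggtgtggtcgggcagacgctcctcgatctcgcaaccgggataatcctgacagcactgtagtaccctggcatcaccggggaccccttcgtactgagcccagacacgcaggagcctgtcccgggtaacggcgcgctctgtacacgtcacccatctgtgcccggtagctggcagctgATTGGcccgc

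Of the other checkpoint genes, Atm, the kinase of double-strand breaks, was measured at 97.1, 79.5, 74.0 and 86.6 CPM in Ddx41+/+ and 86.4, 88.7 and 115.6 CPM in Ddx41+/- samples. The genotypes overlapped, with replicate 8 the highest, and the log2 fold change was 0.20 (SE 0.11, adjusted p = 0.56), or 0.05 without that replicate. Its effector Chek2 gave 39.3, 40.9, 41.1 and 40.1 CPM against 35.9, 37.1 and 41.6 CPM (log2 fold change -0.08, SE 0.083). Chek1, the effector of Atr, was even between samples, at 42.0, 40.0, 40.3 and 41.6 CPM against 39.2, 40.9 and 41.8 CPM (log2 fold change -0.01, SE 0.077). Topbp1, the activator of Atr and the most abundant checkpoint gene per kilobase, gave 372, 358, 344 and 366 CPM against 374, 360 and 386 CPM (log2 fold change 0.05, SE 0.057). The fork protection genes Clspn and Timeless lay within the same limits, with log2 fold changes of 0.10 and -0.01.

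Trp53, which encodes p53, was measured at 284.9, 284.4, 286.0 and 285.8 CPM in Ddx41+/+ and 267.7, 286.6 and 258.0 CPM in Ddx41+/- samples. The Ddx41+/+ samples were nearly identical, and replicates 6 and 8 were below them while replicate 7 was above. The log2 fold change was -0.08 (SE 0.057, adjusted p = 0.688 in edgeR). Transcript level carries no information on the stability of the protein, through which p53 is chiefly controlled.

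In the group of 5 genes that act on chromatin at the break, 4 had a positive log2 fold change. At an unadjusted p under 0.05, 1 of the 5 differed (20%, against 10.6% of all genes). This was Mdc1, the scaffold that binds phosphorylated H2AX, at 152, 133, 125 and 138 CPM in Ddx41+/+ and 144, 158 and 170.0 CPM in Ddx41+/- samples. The genotypes overlapped through replicates 1 and 6, and the log2 fold change was 0.20 (SE 0.076, unadjusted p = 0.0167, adjusted p = 0.349 in edgeR). H2afx itself was measured at 257, 236, 254 and 266 CPM against 257, 232 and 243 CPM (log2 fold change -0.05, SE 0.062). Rnf8, the ubiquitin ligase recruited by Mdc1, was sparse, at 5.05, 5.82, 3.76 and 6.30 CPM against 5.13, 5.90 and 5.75 CPM (log2 fold change 0.09, SE 0.21). Rnf168 and Trp53bp1, which write and read the next ubiquitin mark, both had a log2 fold change of 0.04. For Trp53bp1, 22.1% of the exon length is shared with Tubgcp4 on the opposite strand, and the use of strand in counting is not stated. The same limit holds for Fancl (17% shared with Vrk2), Fanci (13.4% with Polg), Fanca (8.62% with Zfp276), Xrcc6 (8.5% with Desi1), Xrcc4 (7.27% with Tmem167) and, at under 5% of exon, Fancd2, Atr and Mre11a.

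The 3 genes of the MRN complex were even between genotypes, and none had an unadjusted p under 0.05. Rad50, the structural subunit, was measured at 122, 121, 118 and 122 CPM in Ddx41+/+ and 113, 126 and 121 CPM in Ddx41+/- samples (log2 fold change -0.0096, SE 0.063). Mre11a, the nuclease, gave 71.4, 68.4, 62.2 and 60.2 CPM against 65.4, 77.0 and 67.3 CPM (log2 fold change 0.09, SE 0.082). Nbn, the subunit that binds Atm, gave 47.9, 41.5, 47.9 and 45.9 CPM against 43.2, 43.0 and 43.7 CPM (log2 fold change -0.08, SE 0.080).

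Homologous recombination and the RecQ helicases held the most genes with an unadjusted p under 0.05, 3 of 7, all higher in Ddx41+/- LSK cells, against 5.7% of all genes. Of these 3, Brca2 and Wrn have at least 7 kb of exon, a length at which 15.9% of all genes were higher. Blm, the helicase that dissolves recombination intermediates, was measured at 77.7, 74.2, 70.4 and 75.3 CPM in Ddx41+/+ and 81.4, 88.5 and 88.4 CPM in Ddx41+/- samples. Every Ddx41+/- sample lay above every Ddx41+/+ sample. Its log2 fold change of 0.21 (SE 0.068, unadjusted p = 0.00665, adjusted p = 0.284 in edgeR) had the smallest p of the 42 genes. An unadjusted p under 0.05 was kept in 16 of 16 alternative fits by Blm, in 14 by Atr and Mdc1, in 10 by Brca2, in 9 by Atrip and Usp1 and in 8 by Prkdc. For Wrn, which was not among the genes named by rule, this number is not given. Brca2, a central mediator of homologous recombination, was measured at 78.4, 73.2, 53.2 and 73.8 CPM in Ddx41+/+ and 74.2, 86.4 and 94.5 CPM in Ddx41+/- samples. Replicate 3 was well below the other samples, the genotypes overlapped, and the log2 fold change was 0.29 (SE 0.12, unadjusted p = 0.039, adjusted p = 0.434 in edgeR), or 0.18 without that replicate. Wrn, the other RecQ helicase, is named here after its values were seen and was measured at 76.7, 72.7, 77.8 and 76.1 CPM in Ddx41+/+ and 74.0, 91.0 and 90.6 CPM in Ddx41+/- samples (log2 fold change 0.17, SE 0.078, adjusted p = 0.46). Replicate 6 lay among the Ddx41+/+ samples, and replicates 7 and 8 above all of them.

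Brca1, which directs ends into recombination, was measured at 75.8, 74.6, 80.8 and 67.4 CPM in Ddx41+/+ and 74.9, 75.1 and 77.1 CPM in Ddx41+/- samples (log2 fold change 0.02, SE 0.073). The Ddx41+/- samples all fell within the Ddx41+/+ range. Rad51c, the least abundant gene of the group, gave 4.91, 5.54, 4.52 and 4.39 CPM against 5.84, 5.25 and 4.64 CPM (log2 fold change 0.11, SE 0.19). Bard1 and Palb2, the partners of Brca1 and Brca2, had log2 fold changes of 0.05 and -0.05.

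As the gene with the smallest p, Blm is shown with its upstream window, on the minus strand at chr7:80534999-80535248 of GRCm38.p6. The GENCODE annotation, used here for exon lengths, places the start of Blm at 80535119. Part of this RefSeq window thus lies inside the gene in GENCODE. Capitals again mark CCAAT or ATTGG, found from 186 to 182 and from 161 to 157 bases before the RefSeq start.
Blm: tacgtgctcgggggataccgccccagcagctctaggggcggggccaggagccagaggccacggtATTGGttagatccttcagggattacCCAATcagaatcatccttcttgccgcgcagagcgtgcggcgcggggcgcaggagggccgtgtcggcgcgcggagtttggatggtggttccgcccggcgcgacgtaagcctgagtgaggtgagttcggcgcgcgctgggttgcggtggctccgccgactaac

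Such windows were available for 35 of the 42 genes, and 4 motifs were searched on both strands. CCAAT was in 48.6% of the 35 windows and in 34.5% of all 27025 windows. The E2F motif, spelled TTTCGCGC or TTTGGCGC, was in 1 of the 35 windows, that of Topbp1 (2.86% against 0.673%). The ETS motif CCGGAAG was in 6 (17.1% against 7.05%) and the NRF1 motif in 3 (8.57% against 3.86%). Genes tested hold these motifs more often than all genes do, with shares of 36.3% for CCAAT, 1.32% for E2F, 13.7% for ETS and 8.23% for NRF1. The median log2 fold change was 0.02 for the 17 genes with CCAAT and 0.03 for the 18 without it. A match describes the letters of a window and not binding.

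Of the 11 Fanconi genes, whose products repair crosslinks between DNA strands, 5 had a positive and 6 a negative log2 fold change. Usp1, which removes ubiquitin from Fancd2, was measured at 233, 233, 232 and 226 CPM in Ddx41+/+ and 245, 270 and 244 CPM in Ddx41+/- samples. The genotypes did not overlap, and the log2 fold change was 0.13 (SE 0.058, unadjusted p = 0.0387, adjusted p = 0.434 in edgeR), or 0.08 without replicate 7. Fancd2, the protein that is ubiquitinated at crosslinks, gave 67.1, 61.5, 65.4 and 65.2 CPM against 63.6, 62.3 and 76.0 CPM (log2 fold change 0.06, SE 0.080), with replicate 8 alone above the rest. Fanca, of the core ligase complex, varied more, at 69.3, 63.4, 54.5 and 77.7 CPM against 62.9, 56.7 and 83.4 CPM (log2 fold change 0.03, SE 0.14). Fancb, another core member and the lowest of the group per kilobase, gave 9.57, 11.05, 11.06 and 11.4 CPM against 10.1, 10.2 and 11.1 CPM (log2 fold change -0.04, SE 0.14). The other 7 genes had log2 fold changes from -0.12 (Fancl) to 0.12 (Fancm).

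The 5 end-joining genes pointed in different directions. Prkdc, the catalytic subunit of the DNA-dependent kinase, was measured at 72.3, 67.2, 46.5 and 62.8 CPM in Ddx41+/+ and 69.1, 77.5 and 81.6 CPM in Ddx41+/- samples. As for Brca2, replicate 3 was far below the others, and the log2 fold change was 0.29 (SE 0.13, unadjusted p = 0.0408, adjusted p = 0.437 in edgeR), or 0.17 without that replicate. Xrcc5, which encodes Ku80, gave 27.2, 28.6, 27.8 and 30.0 CPM against 26.3, 19.1 and 27.9 CPM, and its log2 fold change of -0.21 (SE 0.12, adjusted p = 0.553) came mostly from replicate 7. Without that replicate the log2 fold change of Xrcc5 was -0.07. Its partner Xrcc6, which encodes Ku70 and is the most abundant of the group, gave 120, 119, 129 and 114 CPM against 122, 109 and 117 CPM (log2 fold change -0.05, SE 0.068). Lig4, the ligase of the final step, was low throughout, at 4.11, 5.67, 3.66 and 3.15 CPM against 3.91, 3.92 and 3.25 CPM (log2 fold change -0.17, SE 0.24).

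Both PARP genes were level between genotypes, with Parp1 at 503, 463, 457 and 444 CPM in Ddx41+/+ and 489, 452 and 491 CPM in Ddx41+/- samples (log2 fold change 0.03, SE 0.061). Parp2 also had a log2 fold change of 0.03.

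**Figure D3:**
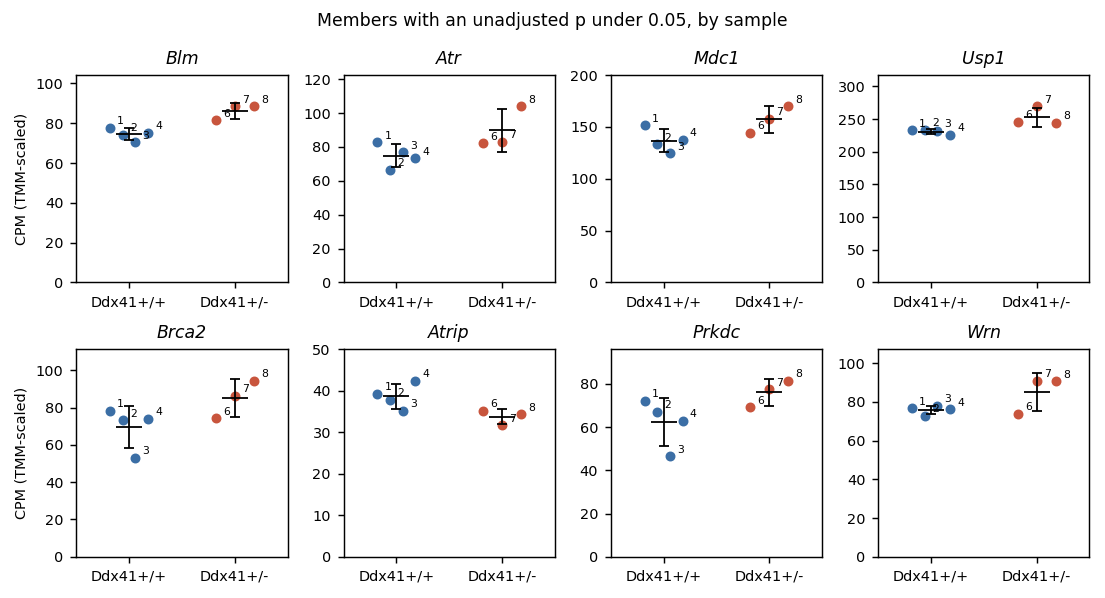
CPM of the 8 genes with an unadjusted p under 0.05 in each sample, with replicate numbers beside the points and the mean ± SD of the 4 Ddx41+/+ (blue) and 3 Ddx41+/- (red) samples. Only Blm, Usp1 and Atrip do not overlap between genotypes, replicate 8 is the highest sample for Atr, Mdc1, Brca2 and Prkdc, and replicate 3 is the lowest for Blm, Mdc1, Brca2 and Prkdc.

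The log2 fold changes of the 42 genes varied with transcript length. All 8 genes with at least 7 kb of exon (Atm, Atr, Mdc1, Trp53bp1, Brca2, Wrn, Fancm and Prkdc) had a positive log2 fold change, with a median of 0.20, and 5 of them had an unadjusted p under 0.05. Of the 34 shorter genes, 16 were positive and 18 negative, with a median of -0.01, and 3 had an unadjusted p under 0.05. The boundary of 7 kb was chosen after the values were seen. The same order was present over all genes tested, where the median log2 fold change was -0.05 below 2 kb of exon, 0.09 from 7 to 10 kb and 0.14 from 10 kb. Among genes of at least 7 kb, 15.9% were higher in Ddx41+/- LSK cells at an unadjusted p under 0.05, against 4.58% of shorter genes. Across the 42 genes, Pearson's r between log2 fold change and log2 exon length was 0.661 and Spearman's rho 0.677, and across 12846 genes they were 0.10 and 0.215. These genes share the same 7 libraries and are not independent.

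This difference with length was also present between samples of 1 genotype. The mean log2 deviation of the 8 long genes was 0.084, -0.107, -0.25 and -0.064 for the Ddx41+/+ samples (replicates 1 to 4) and -0.036, 0.087 and 0.286 for the Ddx41+/- samples (replicates 6 to 8). Replicate 1 thus lay on the side of replicates 7 and 8, and replicate 6 on the side of replicates 2, 3 and 4. Over all genes, the deviation of those with at least 7 kb minus those under 2 kb was 0.141, -0.104, -0.211 and -0.081 in Ddx41+/+ and -0.055, 0.094 and 0.221 in Ddx41+/- samples, in nearly the same order. Replicate 8 was the highest sample for 7 of the 8 long genes and replicate 3 the lowest for 5.

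With an offset for exon length in each sample, an alternative chosen after the data were seen, 5 of the 42 genes had an unadjusted p under 0.05, against 10.4% of all genes, and the median log2 fold change was -0.0038. The log2 fold changes were then 0.17 for Atr, 0.13 for Mdc1, 0.17 for Brca2, 0.18 for Blm and 0.13 for Usp1. The other 3 no longer had an unadjusted p under 0.05, with log2 fold changes of 0.15 for Prkdc (adjusted p = 0.529), 0.09 for Wrn (adjusted p = 0.721) and -0.18 for Atrip (adjusted p = 0.498) in edgeR. That of Atm was 0.08. With a further offset for GC content, Mdc1, Blm and Usp1 were left. The share of all genes at this threshold in that fit is not given. The source of the difference with length was not tested.

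**Figure D4:**
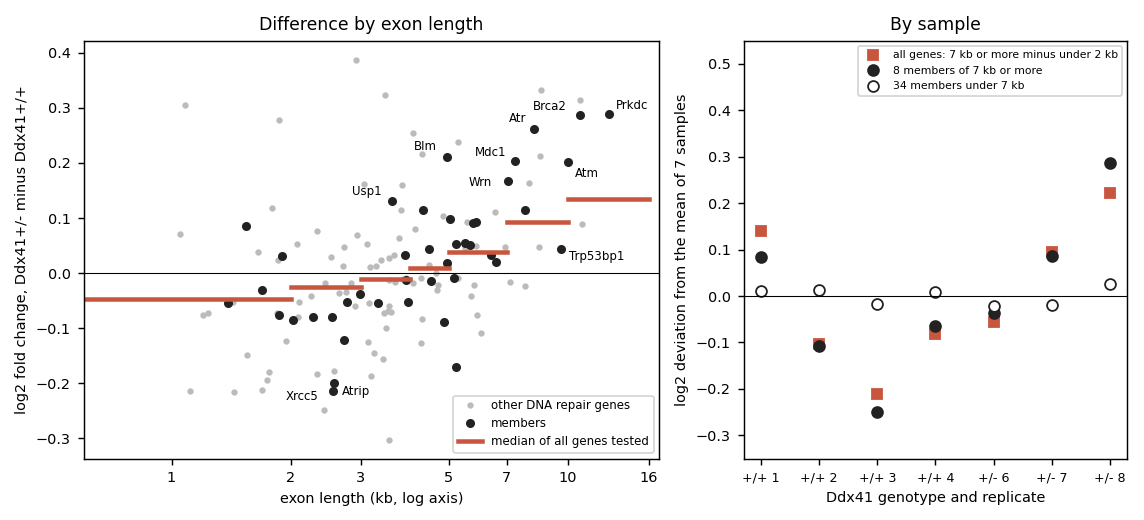
Left, log2 fold change (Ddx41+/- minus Ddx41+/+) against exon length (kb, log axis) for the 42 genes (black), other DNA repair genes (grey) and, as red bars, the median of all genes tested in each length range. Right, log2 deviation of each sample from the mean of the 7 samples, where the 8 long genes (filled circles) follow the difference between long and short genes overall (red squares) and the 34 shorter genes (open circles) stay between -0.021 and 0.027.

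Ratios of complex partners within a sample do not depend on library scaling, and 9 pairs were compared by exact permutation (two-sided, all 35 assignments of genotype to sample), for which the smallest possible p is 0.0571. At a BH-adjusted p under 0.05, 0 of 9 pairs differed, and with this smallest p no pair could have. The ratio of Atr to Atrip counts was 2.10, 1.76, 2.18 and 1.73 in Ddx41+/+ and 2.34, 2.61 and 3.03 in Ddx41+/- samples, which did not overlap. The log2 difference was 0.45 (exact permutation p = 0.0571, adjusted p = 0.257), and 0.34 with the offset for exon length (exact permutation p = 0.171, adjusted p = 0.514). Atr has 8.21 kb of exon and Atrip 2.57 kb. The ratio of Brca2 to Palb2 was 2.69, 2.34, 2.04 and 2.65 in Ddx41+/+ and 2.80, 3.26 and 3.19 in Ddx41+/- samples, again without overlap. The log2 difference was 0.35 (exact permutation p = 0.0571, adjusted p = 0.257), and 0.23 with the length offset (exact permutation p = 0.0571, adjusted p = 0.514), for 10.7 and 3.95 kb of exon. In the other 7 pairs the samples overlapped, with exact permutation p-values from 0.229 to 0.914.

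**Figure D5:**
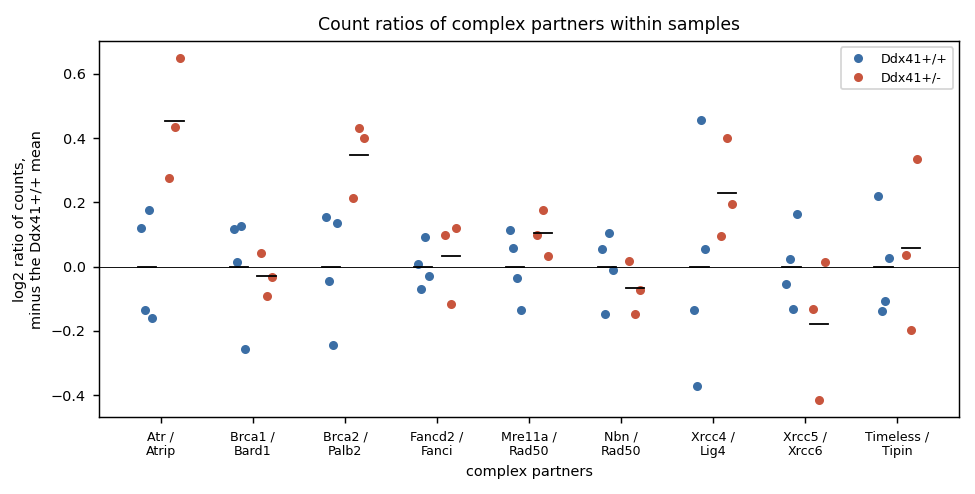
Log2 ratio of the counts of 9 pairs of complex partners in each sample, minus the mean of the 4 Ddx41+/+ samples, with black bars at the mean of each genotype. The 3 Ddx41+/- samples (red) lie above all Ddx41+/+ samples (blue) only for Atr to Atrip and Brca2 to Palb2.

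A wider list of 96 other DNA repair genes was examined, of which 95 were tested. In edgeR 0 had a BH-adjusted p under 0.05 and 7 (7.37%) an unadjusted p under 0.05, below the 10.6% of all genes. Higher in Ddx41+/- LSK cells were Polq, the polymerase of microhomology-mediated joining (log2 fold change 0.33, SE 0.11), Rev3l, the catalytic subunit of polymerase zeta (0.31, SE 0.13), Rif1, which limits end resection (0.21, SE 0.081), and Rad23b of nucleotide excision repair (0.16, SE 0.059). Polq, Rev3l and Rif1 have 8.55, 10.7 and 8.51 kb of exon. Lower were Wee1, the kinase that holds back mitotic entry (log2 fold change -0.16, SE 0.066), Xrcc3 of homologous recombination (-0.25, SE 0.11) and Ung, which removes uracil from DNA (-0.18, SE 0.079). Only Rad23b and Wee1 of these 7 did not overlap between genotypes. Of all 95 genes tested, 5 did not overlap (5.26%, against 10.1% of all genes). The others were Gen1, higher in Ddx41+/- LSK cells, and Lig1 and Mad2l2, lower. In the lists for PIKK assembly, crosslink repair and mismatch repair 0 genes had an unadjusted p under 0.05. The smallest p there belonged to Tti2, a chaperone partner of Atm and Atr (log2 fold change -0.11, SE 0.11), Dclre1a, a crosslink repair nuclease (0.25, SE 0.12), and Msh6, which recognises mismatches (-0.13, SE 0.066).

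Expression of many repair genes follows the cell cycle. A list of 25 S-phase genes summed to 6088 to 6194 CPM in Ddx41+/+ and 6027 to 6199 CPM in Ddx41+/- samples, with a median log2 fold change of -0.02. A list of 20 G2/M genes summed to 4053 to 4382 CPM in Ddx41+/+ and 4372 to 4701 CPM in Ddx41+/- samples, with a median log2 fold change of 0.02. In edgeR 0 genes of either list had an adjusted p under 0.05. At an unadjusted p under 0.05, 3 of the 20 G2/M genes were higher in Ddx41+/- LSK cells (15%, against 5.7% of all genes). Their log2 fold changes were 0.26 for Mki67, 0.15 for Top2a and 0.20 for Cenpe, and 14 of the 20 genes were positive. Mki67 and Cenpe have 10.1 and 7.91 kb of exon, and of all genes with at least 7 kb 15.9% were higher at this threshold. The largest parts of the G2/M sum were Mki67 (mean 769 CPM in Ddx41+/+ and 920 CPM in Ddx41+/-) and Top2a (795 and 884 CPM). Of the S-phase genes, Pola1 was higher (log2 fold change 0.18) and Ung lower at this threshold. The part of the cell cycle in the values of the 42 genes was not tested.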

How the data were processed

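RNA-seq was measured in LSK cells of 7 mice, 4 Ddx41+/+ and 3 Ddx41+/-, grouped by the genotype in the labels. The deposited values were raw counts per gene symbol. Per the submitters' processing notes the authors used FastQC 0.11.7, HISAT2 2.0.5, featureCounts 1.5.2 and the mm10 build. Strand and multi-mapping settings are not given in the sources used here, and 0 columns were unused. Genes were filtered with filterByExpr (13340 of 24421 symbols kept), scaled by TMM and tested with the robust quasi-likelihood test of edgeR 4.0.16 (R 4.3.3) with Benjamini-Hochberg adjustment and no covariates. The biological coefficient of variation was 12.9%. Intervals are 95%. No pair of samples agreed within sampling noise (chi-square per gene at least 13.7 in 21 pairs). The labels name no batch, and p-values measure the spread between these recipient mice. How many donors their marrow came from is not stated in the paper. Exon lengths were taken from GENCODE on GRCm38, for 96.3% of genes tested, and promoter windows from RefSeq. Ratios used counts plus 0.5 and the two-sided permutation test of SciPy 1.17.1. An absolute-difference form of that test was tried after the values were seen and is given as an alternative. DESeq2 1.42.0, limma 3.58.1, other scalings and filters and leaving out each sample were further alternatives, and the fits were tested on simulated data. Members and lists were chosen with earlier results of these data known. Genes given in full were those without overlap between genotypes, the 5 with the smallest p in each direction, 13 picked for their roles and the extremes of level in each role group.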

Additional observations from a re-analysis of the deposited data

Results flagged for a closer look

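Of 52 sets of 4 Ddx41+/+ values checked for a sample standing apart from the other 3 by Dixon's ratio (its gap to the nearest value over the whole range), 2 exceeded the 95% critical value, and chance alone gives about 2.6. For Fancb the ratio was 0.82914, barely past that value, with replicate 1 at 9.57 CPM and the others at 11.05 to 11.4 CPM. For Rad50 it was 0.86432, with replicate 3 at 117.7 CPM and the others at 121.4 to 122.0 CPM.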

How the results depend on the processing

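Under every alternative run, 0 of the 42 genes had an adjusted p under 0.05, and the lowest adjusted p of a named gene was 0.152 (Blm, DESeq2). Of the 26 genes named by rule, 18 kept their sign in all 16 alternative fits, and Brca1, Chek1, Fanca, Fancd2, H2afx, Lig4, Rad50 and Rnf8 did not. The count of 8 genes at an unadjusted p under 0.05 (7 higher, 1 lower) became 4 (3 higher) with library totals only, 5 (0 lower) with the exon-length offset and 3 (3 higher, 0 lower) with the exon-length and GC offset. For alternatives other than the exon-length offset (10.4%), the share of all genes at this threshold is not given. The 3 genes without overlap between genotypes became 2 with median-of-ratios scaling. The 29 calls over all genes became 15 with library totals only, 91 with no filter on low counts, 14 without the robust fit, 156 with DESeq2, 54 with the exon-length offset and 61 with the exon-length and GC offset. The cause was not tested. Leaving out 1 sample at a time gave 3 to 9 of the 42 genes at an unadjusted p under 0.05, 2 to 8 of them higher and 0 to 1 lower. The count was 3 without replicate 3, 7 or 8, 4 without replicate 4 and 5 without replicate 2, and lower genes were 0 without replicate 1, 2, 4 or 7. Genes without overlap numbered 3 to 10, with 8 without replicate 1, 10 without replicate 6 and 5 without replicate 8, where fewer samples must be separated. The share of all genes without overlap in these smaller sets of samples is not given, so these counts have no background to be read against. The median log2 fold change ran from -0.0188 (without replicate 8) to 0.0558, intervals inside 1.5-fold from 37 to 41, calls over all genes from 7 (without replicate 2) to 41, with 16, 14 and 9 without replicates 3, 7 and 8, and the log2 fold change of Ddx41 from -0.5644 to -0.4959. For the partner ratios, SciPy's two-sided p was used as first computed. Counting splits by the absolute difference of means, a form tried after the values were seen, gives an exact permutation p of 0.0286 for Atr to Atrip in place of 0.0571, with the same adjusted p of 0.257 and 0 of 9 pairs below 0.05. No paired analysis was possible because the genotypes share no replicate numbers.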

Other observations

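The starts of 16 of the 42 genes lie within 1000 bases of a gene transcribed the other way. Of the 15 neighbours tested, 0 had an unadjusted p under 0.05 in edgeR, against 10.6% of all genes. Prkdc (log2 fold change 0.29) starts 466 bases from Mcm4, which encodes a subunit of the replicative helicase and had a log2 fold change of -0.02 (SE 0.055). Atm (0.20) starts 307 bases from Npat, an activator of histone genes, at 0.05 (SE 0.078). Trp53 (-0.08) starts 104 bases from Wrap53, which overlaps it as an antisense partner in part of its forms, at 0.16 (SE 0.10).

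Of 20 p53 target genes 19 were tested, and in edgeR 0 had an adjusted p under 0.05. At an unadjusted p under 0.05, 3 of the 19 differed (15.8%, against 10.6% of all genes). Btg2 (log2 fold change 0.38, SE 0.13) and Ccng1 (0.21, SE 0.075) were higher in Ddx41+/- LSK cells (10.5%, against 5.7% of all genes). Sesn1 (-0.27, SE 0.094) was lower. Cdkn1a, Mdm2 and Bax had log2 fold changes of 0.0059, -0.05 and 0.02, and of the 19 genes 12 were positive and 7 negative. The summed level of all 20 targets was 400.4 to 431.4 CPM in Ddx41+/+ and 414.3 to 428.3 CPM in Ddx41+/- samples.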
